A study of Mus musculus with 30 samples.

Results

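MAP kinases and protein phosphatases were followed in AtT-20 cells, a mouse corticotrope tumour line, during exposure to corticotropin-releasing hormone (CRH), the hypothalamic peptide that drives ACTH release. The members were all spots whose deposited name began with mitogen activated protein kinase, dual specificity phosphatase, protein tyrosine phosphatase or protein phosphatase. They numbered 170 spots for 107 genes, of 22830 spots that carried a DNA other than a control. A spot was called measured when both dyes were above the dimmest 10% of spots on all 30 arrays, and this held for 107 member spots (70 genes) of 14375 spots in all. Of the 63 dimmer member spots, 17 missed this limit on 1 array, 17 on 2 to 5 arrays, 17 on 6 to 15 arrays and 12 on more than 15, and 37 genes had no measured spot. Among those 37 were Mapk3 (ERK1), Map2k1 (MEK1) and Map2k2 (MEK2). The rule works on names, so it also took proteins that bind these enzymes, such as the liprins Ppfia4 and Ppfibp2, and proteins named after them, such as Sirpa and Hacd1 (deposited as Ptpns1 and Ptpla).

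The cells were kept without serum before and during the experiment, and CRH was given at 100 nM in fresh medium without serum or antibiotics. Untreated cells from the same time, in the same medium, were the controls at 1, 3, 6, 12 and 24 h. Each time point had 6 two-colour arrays, 3 with the CRH sample in Cy3 and the other 3 with the dyes swapped. The study treats the 6 as technical replicates. The labels do not say how many cultures an extract came from. All values below are log2 ratios of CRH-treated over untreated cells, so 0 is no difference and 1 is a doubling. An SD over 6 arrays, and any p over the arrays, was therefore read as the spread of the technique and not between cultures, and only the 5 time points were taken as independent of each other. In a bulk extract, fewer cells that express a gene and less RNA per cell cannot be told apart.

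The arrays had median spot intensities from 457.9 to 2038, with median backgrounds of at most 28.3. The files of 3 h and 6 h carried the same date, those of 1 h another, those of 12 h replicates 1 to 4 the third, and those of 12 h replicates 5 and 6 with 24 h the fourth. Time and file date can therefore be told apart only between 3 h and 6 h and, through 2 arrays of 12 h, between 12 h and 24 h. Of 11 corticotrope marker genes, 8 were found by name and 6 were measured, among them Pomc, the ACTH precursor, and the lineage factors Tbx19 and Neurod1. Of 11 fibroblast and leukocyte markers, 9 were found among the deposited spot names and 6 were measured, and Gh, the only marker of another pituitary lineage so found, was measured too, so that being measured did not separate cell types. Over the 5 time points the corticotrope list passed the size rule explained below in 2 pairs of spot and time point, both lower. The other marker lists passed it in 0. Both pairs were of Neurod1, in 2 spots, and no other corticotrope marker passed. The time course of both spots depended on the dye in the linear model described below (interaction p = 0.0063 and 0.0014, n = 30 arrays). Ptprc (CD45), a member that marks leukocytes, was above the limit on 27 arrays and was not measured.

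MAP kinases are the last step of a relay in which a MAP kinase kinase kinase phosphorylates a MAP kinase kinase, which phosphorylates the MAP kinase on a threonine and a tyrosine. Dual specificity phosphatases (DUSPs) remove both phosphates and switch the MAP kinase off, and several DUSP genes are themselves induced by the signal. In corticotropes, CRH binds its receptor CRHR1, raises cyclic AMP and activates the ERK branch of the MAP kinases. Protein phosphatases 1 and 2A (PP1 and PP2A) take phosphate off serine and threonine, with target choice set by regulatory subunits, and protein tyrosine phosphatases act on tyrosine at the membrane or in the cytosol.

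Cyclic AMP acts on genes through CREB, which binds the palindrome TGACGTCA or its half-site TGACG. The 250 bases before the transcription start are shown for Dusp1 and Dusp14, because these were the DUSP genes with the highest mean log2 ratios at 1 h. They come from RefSeq, build GRCm38.p6, minus strand, and capitals mark the palindrome and the half-site on either strand (TGACG or CGTCA).
Dusp1, chr17:26508473-26508722: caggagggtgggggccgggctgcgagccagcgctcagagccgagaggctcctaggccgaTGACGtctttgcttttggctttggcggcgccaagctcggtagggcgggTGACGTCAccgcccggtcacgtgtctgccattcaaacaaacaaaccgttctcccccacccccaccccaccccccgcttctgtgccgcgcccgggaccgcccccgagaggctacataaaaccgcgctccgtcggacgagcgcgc
Dusp14, chr11:84068358-84068607: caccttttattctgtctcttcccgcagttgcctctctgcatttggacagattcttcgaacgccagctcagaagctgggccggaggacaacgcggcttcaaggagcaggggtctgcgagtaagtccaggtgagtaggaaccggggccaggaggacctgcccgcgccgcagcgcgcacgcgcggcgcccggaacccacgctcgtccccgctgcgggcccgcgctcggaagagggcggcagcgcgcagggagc
The Dusp1 promoter held the palindrome beginning 143 bases before the start and a further half-site beginning 191 bases before it, while neither was in the Dusp14 window. The palindrome stood in 508 of 32851 RefSeq promoters of this length (1.55%) and a half-site, including those inside palindromes, in 5836 (17.8%). Of the 107 member genes 88 matched this table, with 118 promoters. The palindrome was in 8 of these promoters (6.78%) and a half-site in 32 (27.1%). The genes with a palindrome were Dusp1, Dusp8, Mapk10, Ppm1a, Ppm1d, Ppp2ca, Ptpn11 and Ptprl (now Ptpru). These are matches of letters, not binding, and base composition was not compared.

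Over all measured members, ratios stayed close to 0 at every time point. The median over the 5 time points was -0.01 for the members and -0.01 for all spots, and single members ran from -0.19 to 0.20. The time-point means ran from -0.41 for Ptprs at 24 h to 0.55 for Dusp19 at 12 h, against -0.86 to 1.32 for all spots. At 1, 3, 6, 12 and 24 h, 51, 46, 47, 51 and 50 of the 107 members had a mean above 0. The median SD over 6 arrays was 0.320 for members and 0.316 for all spots. The difference between the 2 dye orientations had a median size of 0.350 for members and 0.340 for all spots, and the time-point means had a median size of 0.0924 and 0.0978.

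With the 5 time-point means as units, limma called 0 of 107 members for a CRH effect over the course (adjusted p under 0.05), and 8 of all 14375 spots (0.0557%). Without adjustment, 8 members had p under 0.05 (7.48%), against 5.38% of all spots. The trend with the logarithm of time was called in 0 members and in 0% of all spots by limma's adjusted p, and in 6 members (5.61%) against 7.15% of spots without adjustment. The 95% intervals of the CRH effect lay within -0.31 and 0.34 for all 107 members, with a median distance of 0.131 from estimate to bound. A lasting change of 1.5-fold in either direction was therefore outside the interval of each measured member. The highest effect was 0.20 (SE 0.07, limma adjusted p = 0.76) for a spot of Ptp4a1 and the lowest was -0.19 (SE 0.05, limma adjusted p = 0.66) for 1 of 4 spots of Ppp3ca, the catalytic subunit of calcineurin. The other Ppp3ca spots had effects of 0.07, -0.12 and -0.05. Ppp3ca was picked for this place after its values were seen.

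**Figure D1:**
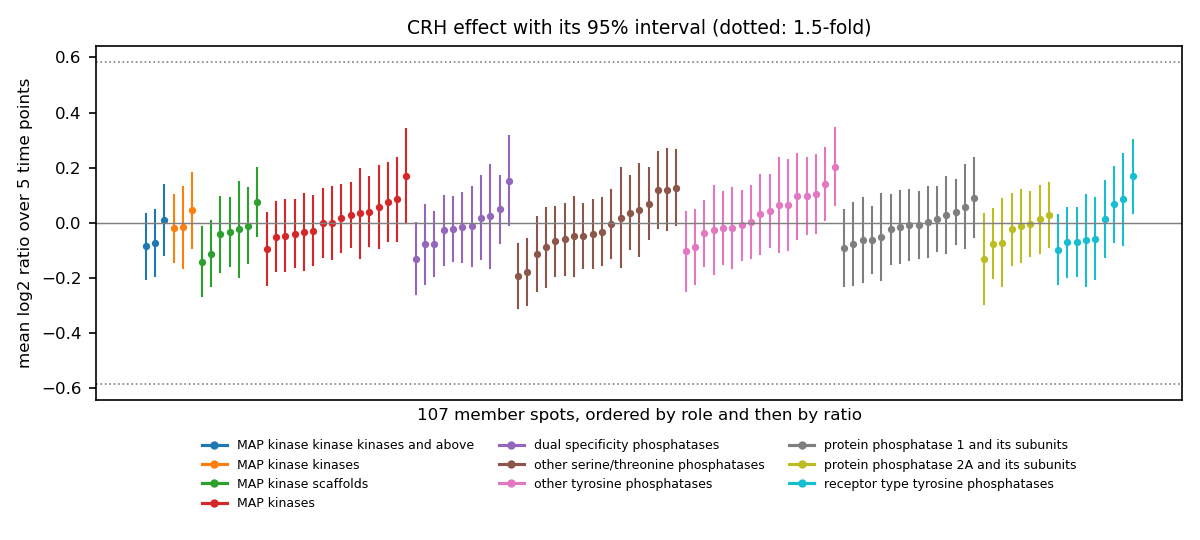
Each of the 107 measured member spots is a point at its mean log2 ratio (CRH over untreated) over the 5 time points, with its 95% interval as a line, ordered by role and then by ratio. All intervals lie between -0.31 and 0.34, inside the drawn limit of 1.5-fold.

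A size rule, a mean of at least 1.5-fold with all 6 arrays on the same side of 0, was met by 0 of the 535 pairs of a measured member and a time point in either direction. Over all spots 0.102% of pairs were higher and 0.0348% lower by this rule. With 0.4 (log2) as the size, 4 pairs were higher (0.748%), against 0.565% of all pairs, and 1 was lower (0.187%), against 0.317%. The higher ones were Mapk8ip2 at 1 h, Ppm1g and Mapk6 at 3 h and Dusp19 at 12 h, and the lower one was Ptprs at 24 h.

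A change between time points was tested in a linear model over the 30 arrays, after spots whose time course depended on the dye had been set aside. Such an interaction (p under 0.01) was found in 12 members of 107 (11.2%), against 14.8% of all spots. Time had p under 0.01 in 6 of the other 95 members (6.32%), against 8.27% of all spots, and in 4 after Benjamini-Hochberg adjustment over all spots (4.21%, against 3.85%). The share of members called was near that of all spots by these rules. Spots of Ptp4a2, Mapk8ip2, Ptpn11, Ptpre and Ppp2cb were among the 6, and each of these 5 had its lowest or its highest mean at 1 h. With file date as a block 1 member was called, Map2k5, and with 3 h against 6 h alone 3 were called, Ppp1r11, Map2k5 and Mapk9, none of them among the 6. Without the 1 h arrays 5 members were called, 1 of the 6 with Ppm1g, Ptp4a1, Mapk9 and Map2k4. The counts with file date as a block, with 3 h against 6 h and without 1 h are not set beside all spots here. They are no result about the members as a set. The part of file date in these calls was not tested further.

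**Figure D2:**
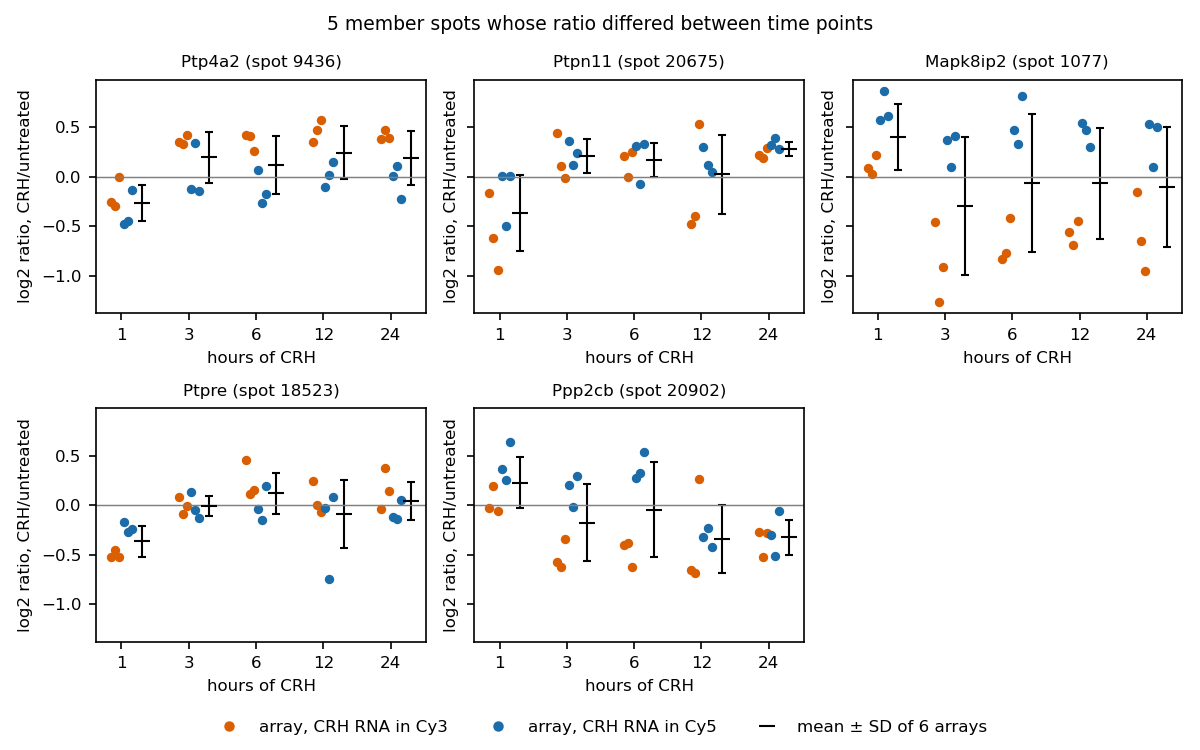
The spots of Ptp4a2, Ptpn11, Mapk8ip2, Ptpre and Ppp2cb with p under 0.01 for time are shown with the log2 ratio of each of the 6 arrays at 1, 3, 6, 12 and 24 h, by dye orientation, and the mean with its SD. Means stay between -0.37 and 0.40, and the orientations of Mapk8ip2 lie apart at 3 h, with means of -0.88 and 0.29.

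Among the DUSPs, 11 of 14 spots were measured, for 10 of 12 genes. At 1 h 9 of the 11 had a mean above 0, with a median of 0.16, where 7345 of all 14375 spots were above 0. At 3, 6, 12 and 24 h 2, 5, 3 and 3 of the 11 were above 0, with medians of -0.06, -0.02, -0.04 and -0.07. Of all 14375 spots 6455, 7135, 6960 and 6806 were above 0 at these times. The DUSP means were thus mostly above 0 at 1 h and not at 3 h. Of the 11 spots 3 had an interaction of time and dye, those of Dusp3, Dusp19 and 1 of Dusp6, and all 3 were above 0 at 1 h. No measured DUSP spot had p under 0.01 for time, so these are counts and medians without a call.

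Dusp1 (MKP-1), an immediate-early gene whose protein dephosphorylates ERK, JNK and p38, had 1 spot, and it was measured. At 1 h its 6 arrays had a lowest ratio of -0.02, a median of 0.26 and a highest of 1.29, with a mean of 0.40 (SD 0.47, n = 6 arrays, 1.32-fold). The mean was 0.10 with the CRH sample in Cy3 and 0.70 in Cy5, and 5 of 6 arrays were above 0. The means then were 0.18 (SD 0.21) at 3 h and 0.06 (SD 0.21) at 6 h. At 12 h the mean was -0.18 (SD 0.52), and at 24 h it was -0.35 (SD 0.76). The arrays of the 5 time points overlapped, since those at 24 h ran from -1.75 to 0.37. Time as 5 levels had p = 0.10 in the linear model (n = 30 arrays, adjusted p = 0.37). Time in hours as a number had p = 0.0076 (n = 30 arrays), with a slope of -0.030 per hour and an adjusted p of 0.26. This rested on 1 array, 24 h replicate 5 at -1.75: without it the p was 0.052 (n = 29 arrays) and the 24 h mean was -0.07. Over the 5 time-point means, that array included, the limma trend was -0.17 per doubling of time (SE 0.04, adjusted p = 0.59), not past the threshold.

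Dusp14 (MKP-6), a small DUSP that acts on JNK and ERK, had the highest time-point mean of the member spots above the intensity limit on at least 29 arrays, but this spot, its only one, was under the limit on 1 of the 30 and so was not measured by the rule. Cy3 was at 0.452 of the limit on 12 h replicate 6, and the spot has no row in the deposited table of processed ratios. It was singled out after its values were seen, in a fit of the 16576 spots that met the limit on at least 29 arrays. At 1 h its arrays ran from 0.37 through a median of 1.06 to 1.15, with a mean of 0.93 (SD 0.29, n = 6 arrays, 1.90-fold). At 3 h they ran from 0.47 through 0.60 to 1.12, with a mean of 0.73 (SD 0.27, n = 6 arrays, 1.66-fold). All 12 of these arrays were above 0, and the orientations agreed within 0.2, with 0.85 in Cy3 and 1.00 in Cy5 at 1 h and 0.75 and 0.71 at 3 h.

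The ratio of Dusp14 was lower at the later times. Its mean was 0.34 (SD 0.26) at 6 h, with 5 of 6 arrays above 0, and 0.27 (SD 0.60) at 12 h, or 0.31 without the dim array. At 24 h the mean was -0.22 (SD 0.22), with arrays from -0.53 to 0.06 and 1 of 6 above 0. The arrays of 1 h and 3 h did not overlap those of 24 h. Time had p = 0.00014 over the 30 arrays and 0.00022 without the dim one (n = 29 arrays), with an adjusted p of 0.011 over all spots tested. The arrays of 1 h, 3 h and 24 h differ in file date, and Dusp14 was not tested with file date as a block. Over the 5 time points the limma effect was 0.41 (SE 0.12, adjusted p = 0.72), and the trend was -0.24 per doubling of time (SE 0.04, adjusted p = 0.23), neither past the threshold. With this looser limit Dusp14 gave both of the 2 member pairs higher by the size rule (0.323% of 620 pairs, against 0.109% of all pairs). Time was then called in 8 of 113 members (7.08%, against 7.54% of all spots), with Dusp14 and Mapk3 added to the 6. By its mean at 1 h Dusp14 stood at rank 5 of the 16576 spots, and 3 spots, Dusp14 included, had so high a mean with all arrays above 0. Without an intensity limit it stood at rank 13 of 22830 spots. Because it was picked for these values, the ranks are no test.

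Dusp19, a DUSP without a MAP kinase binding motif, had the highest mean of any measured member. At 12 h its arrays ran from 0.20 through 0.59 to 0.88, with a mean of 0.55 (SD 0.28, n = 6 arrays), 0.46 with CRH in Cy3 and 0.64 in Cy5. All 6 arrays were above 0 at 12 h, while the means at the other times lay between -0.0024 and 0.11. Its interaction of time and dye had p = 0.0097 (n = 30 arrays), so it was set aside from the test of time. Dusp6 (MKP-3), the cytosolic ERK phosphatase and a feedback target of ERK, had means of 0.16 (SD 0.80) and 0.18 (SD 0.29) at 1 h in its 2 spots. The first Dusp6 spot split by dye at 1 h, with 0.88 in Cy3 and -0.56 in Cy5, and had an interaction. Dusp3 (VHR) had a mean of 0.35 (SD 0.20) at 1 h with all 6 arrays above 0, and it too had an interaction. Dusp2, Dusp7, Dusp8, Dusp10, Dusp12 and Dusp16 had means between -0.31 and 0.23 at all times.

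**Figure D3:**
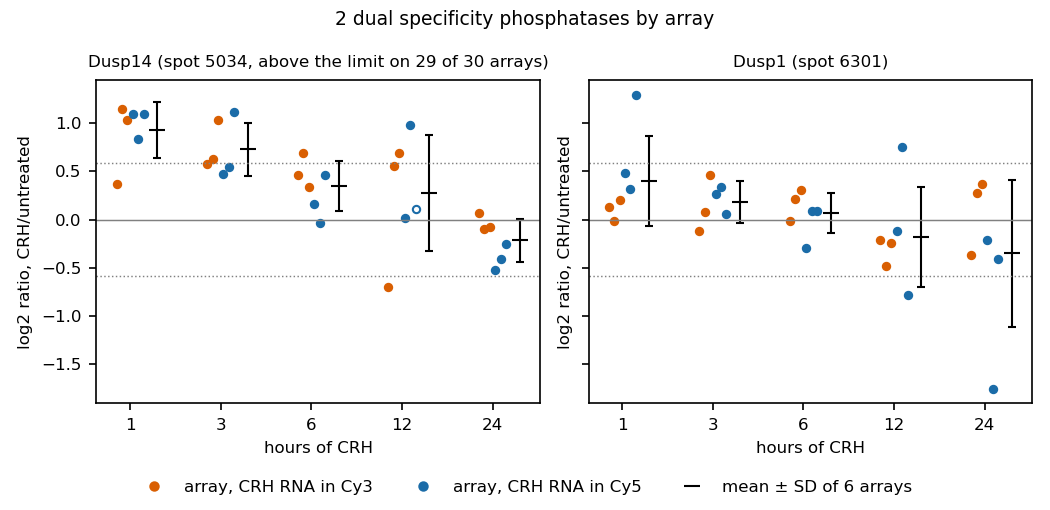
Log2 ratios of single arrays (CRH over untreated) for Dusp14 and Dusp1 at 1, 3, 6, 12 and 24 h, coloured by dye orientation, with mean and SD of 6 arrays and 1.5-fold as dotted lines. Dusp14 lies between 0.37 and 1.15 at 1 h on all 6 arrays and Dusp1 between -0.02 and 1.29, and the open circle is the Dusp14 array under the intensity limit.

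Of the kinases above the MAP kinases, 3 of 13 spots of MAP kinase kinase kinases and of the kinases upstream of them were measured. Their means lay between -0.16 and 0.10, the lowest for Map3k3 (MEKK3) at 6 h and the highest for Map4k5 at 3 h. Of the MAP kinase kinases, 3 of 7 spots were measured and 1 had an interaction, that of Map2k4 (MKK4), which activates JNK and p38. Map2k4 had a mean of 0.27 (SD 0.13, n = 6 arrays) at 3 h, with arrays from 0.10 through 0.25 to 0.43, all above 0. That value moved with the normalization by more than its SD, between 0.14 with saturated spots left out and 0.56 with 1 loess curve per array.

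The MAP kinase scaffolds, which hold the kinases of a cascade together, were measured in 7 of 7 spots. Mapk8ip2 (JIP2), a JNK scaffold of neurons and endocrine cells, had arrays from 0.03 through 0.40 to 0.87 at 1 h, with a mean of 0.40 (SD 0.34, n = 6 arrays). At 3 h the mean was -0.29 (SD 0.70), and later means lay between -0.10 and -0.06. Time had p = 0.0017 (n = 30 arrays, adjusted p = 0.047). The ratio of this spot followed the dye, with -0.88 in Cy3 and 0.29 in Cy5 at 3 h, and the other Mapk8ip2 spot had a mean of 0.01 (SD 0.39) at 1 h.

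Among the MAP kinases themselves 16 of 24 spots were measured and 2 had an interaction. Mapk3 (ERK1), under the limit on 1 array, had means of -0.26, 0.24, -0.18, -0.26 and 0.28 with the looser limit and p = 0.0095 for time (n = 30 arrays, adjusted p = 0.13). Its means thus lay below 0 at 1, 6 and 12 h and above 0 at 3 and 24 h.

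Mapk6 (ERK3), an atypical MAP kinase regulated mainly through its abundance, had means of 0.39 (SD 0.36) at 1 h and 0.46 (SD 0.30) at 3 h. At 3 h its arrays ran from 0.03 through 0.54 to 0.76, all above 0, but with 0.71 in Cy3 and 0.22 in Cy5. Later means lay between -0.08 and 0.15, and the interaction with dye had p = 0.0090 (n = 30 arrays). Mapk9 (JNK2) had 5 measured spots. One of them had a mean of 0.42 (SD 0.24) at 6 h, while the other 4 had means from -0.26 to -0.10 at that time, so the gene had no common direction.

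Among the cytosolic and other tyrosine phosphatases, 17 of 23 spots were measured, 1 had an interaction and 2 were called for time. By name this group also held Sirpa and Hacd1. Ptp4a2 (PRL-2), a membrane-tethered phosphatase of the PRL family, had the lowest p for time of any measured member (p = 3.2e-05, n = 30 arrays, adjusted p = 0.0042). At 1 h its arrays ran from -0.48 through -0.27 to -0.01, all below 0, with a mean of -0.27 (SD 0.18, n = 6 arrays). The later means were 0.20 (SD 0.26), 0.12 (SD 0.29), 0.24 (SD 0.27) and 0.19 (SD 0.27), so the 1 h value was on the other side of 0 from all others. The other measured spots had means at 1 h of -0.16 (SD 0.36) and -0.08 (SD 0.18), also below 0, with time p of 0.15 and 0.025 (n = 30 arrays). At 3, 6, 12 and 24 h the first of them had means of 0.13, 0.24, 0.16 and 0.11. The second had 0.29, -0.14, 0.11 and -0.02, so its lowest mean was at 6 h and it did not repeat this course.

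Ptpn11 (SHP2), which links receptor kinases to Ras and ERK, had a spot with a mean of -0.37 (SD 0.38, n = 6 arrays) at 1 h, from -0.94 through -0.33 to 0.01. Its later means were 0.21 (SD 0.17), 0.17 (SD 0.17), 0.02 (SD 0.40) and 0.28 (SD 0.07), and time had p = 0.0017 (n = 30 arrays, adjusted p = 0.046). At 24 h all 6 arrays were above 0, from 0.19 to 0.40. The other 2 spots of Ptpn11 had means of 0.14 (SD 0.28) and -0.07 (SD 0.27) at 1 h and time p of 0.77 and 0.36 (n = 30 arrays). Ptp4a1 (PRL-1), an immediate-early gene of regenerating liver, had means at 1 h of 0.39 (SD 0.39), with all 6 arrays above 0, and 0.21 (SD 0.27) in its 2 spots. Both spots also had means above 0 at 3, 6 and 12 h.

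The receptor type tyrosine phosphatases, counted here with the liprins Ppfia4 and Ppfibp2, were measured in 9 of 22 spots. Of these 1 was called for time, a spot of Ptpre. At 1 h its arrays ran from -0.53 through -0.36 to -0.17, all below 0, with a mean of -0.37 (SD 0.16, n = 6 arrays), and later means lay between -0.08 and 0.12. Time had p = 0.0065 (n = 30 arrays, adjusted p = 0.096). Another Ptpre spot had a mean of 0.11 (SD 0.44) at 1 h and 0.43 (SD 0.57) at 24 h. A spot of Ptprs, a receptor phosphatase of neurons that binds proteoglycans, had a mean of -0.41 (SD 0.25, n = 6 arrays) at 24 h, from -0.78 through -0.40 to -0.12. The other 2 Ptprs spots had means of 0.04 (SD 0.49) and 0.07 (SD 0.50) at 24 h.

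PP1 and its subunits were measured in 15 of 28 spots, with 2 interactions and 0 calls for time. Ppp1r9b (spinophilin), which places PP1 at the actin of dendritic spines, had the lowest mean of this group, -0.38 (SD 0.15, n = 6 arrays) at 1 h. Its arrays ran from -0.51 through -0.44 to -0.18, the orientations were at -0.36 and -0.40, and the means at 3, 6, 12 and 24 h lay between -0.14 and 0.05. Time missed the threshold with p = 0.014 (n = 30 arrays), and a further Ppp1r9b spot had a mean of -0.11 (SD 0.61) at 1 h. The highest mean of the group was 0.28 (SD 0.43) for Ppp1r11 (inhibitor 3 of PP1) at 24 h. With the looser limit a spot of Ppp1r1c, an inhibitor subunit of PP1, had a mean of -0.61 at 24 h without passing the size rule, while its other spot, measured on all arrays, was at -0.06 (SD 0.28).

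PP2A was measured in 8 of 10 spots, with 1 interaction and 1 call for time, that of Ppp2cb, the beta catalytic subunit. Its mean was 0.23 (SD 0.26) at 1 h, -0.18 (SD 0.39) at 3 h, -0.04 (SD 0.48) at 6 h, -0.34 (SD 0.35) at 12 h and -0.33 (SD 0.18) at 24 h. At 24 h all 6 arrays were below 0, from -0.52 through -0.29 to -0.06, and time had p = 0.0085 (n = 30 arrays, adjusted p = 0.11). Ppp2r1a, the scaffold subunit, had a mean of -0.41 (SD 0.46) at 24 h, with 4 of 6 arrays below 0.

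The other serine and threonine phosphatases, among them calcineurin and the metal-dependent PPM family, were measured in 18 of 22 spots, with 2 interactions and 0 calls for time. Ppm1g, a nuclear phosphatase, had arrays from 0.20 through 0.48 to 0.80 at 3 h, with a mean of 0.46 (SD 0.23, n = 6 arrays), and 0.44 and 0.48 in the 2 orientations. Its means at the other times lay between -0.18 and 0.04, and because the orientations parted at 1 h, -0.60 against 0.25, it had an interaction (p = 0.0075, n = 30 arrays). Ppm1a, which acts on p38 and JNK among others, showed the widest gap between spots of the same gene, 0.74 at 12 h, with a mean of -0.34 (SD 0.44) in one and 0.40 (SD 0.34) in another. The spot with the higher mean had an interaction of time and dye in the linear model (p = 0.00032, n = 30 arrays).

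**Figure D4:**
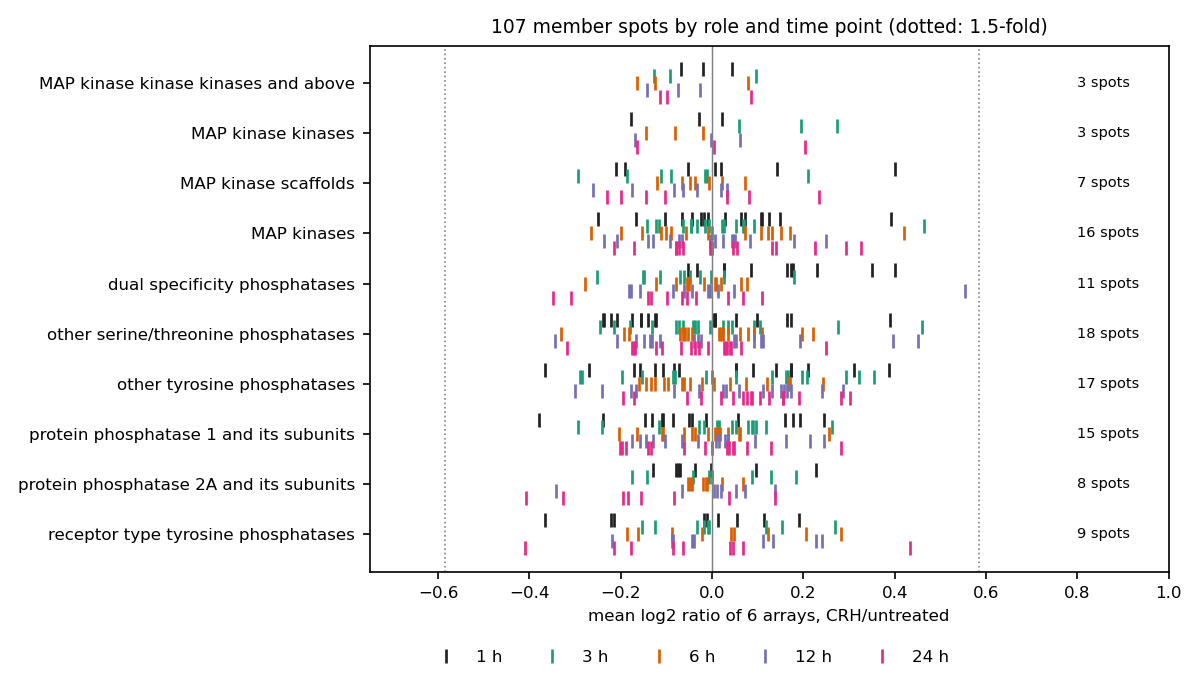
Time-point means of the log2 ratio (CRH over untreated) of the measured member spots, as ticks by role, coloured by time point, with 1.5-fold as dotted lines. No tick passes 1.5-fold, and at 1 h 9 of the 11 DUSP spots lie above 0, against 7345 of all 14375 spots.

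Genes with several measured spots give a repeat within the array. There were 20 such genes with 57 spots, which made 61 pairs of spots and 305 comparisons over the 5 time points, and the means had the same sign in 165 of them (54.1%). The median difference within a pair was 0.119, and all spots of a gene were on one side of 0 in 43 of 100 cases. Spots with an interaction were included. The same shares were not computed over all genes with several spots, so these values are not shown to be particular to the members. Of the 6 spots called for time 5 belonged to such genes, and only the called spot passed in each. When spots of the same name were averaged, a step chosen after the data were seen, 3 of 61 members were called for time (4.92%), against 8.33% of all names. These were Ptp4a2 (p = 0.0017, n = 30 arrays, adjusted p = 0.045), Ptp4a1 (p = 0.0058, n = 30 arrays) and Ppp2cb. The averaged means of Ptp4a1 were 0.30, 0.26, 0.12, 0.16 and -0.07 at 1, 3, 6, 12 and 24 h.

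**Figure D5:**
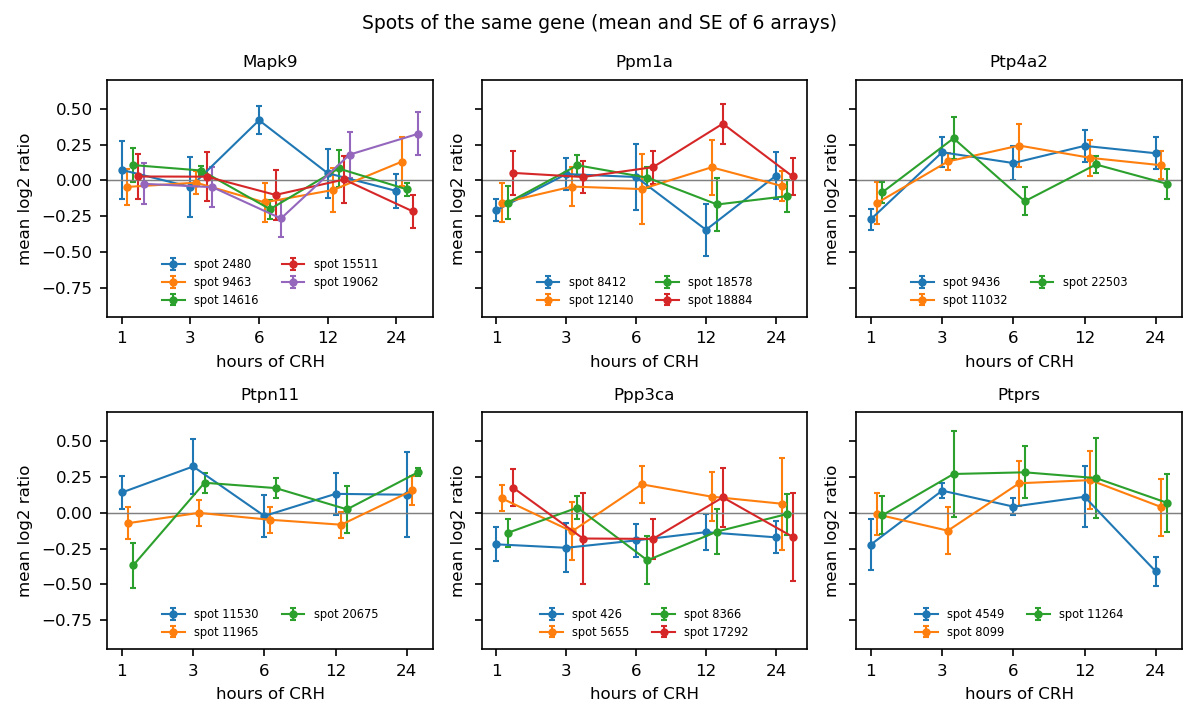
Time-point means of the log2 ratio (CRH over untreated) with their SE over 6 arrays, for each measured spot of Mapk9, Ppm1a, Ptp4a2, Ptpn11, Ppp3ca and Ptprs, joined over time. At 6 h 1 spot of Mapk9 is at 0.42 and the other 4 lie between -0.26 and -0.10.

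A list of 56 ERK cascade, feedback and target genes outside the set had 41 genes found by deposited name and 22 measured, with 29 spots. The study's own annotation gives some spots other gene names, among them spots of Fosl2 and Pebp1, and spots so named were not counted here. The study places both genes among its candidates that separate the time points, so these counts leave out spots it took as regulated. Of the 29 spots counted, 3 had an interaction, 1 was called for time and 0 were past the size rule or either limma test. Their median effect was 0.02 against -0.01 for all spots. The 1 called spot was of Pea15a, which binds ERK and keeps it in the cytosol, at -0.57 (SD 0.26) at 1 h and 0.32 (SD 0.35) at 3 h (p = 0.00024 for time, n = 30 arrays, adjusted p = 0.013). The other measured Pea15a spot was at -0.06 (SD 0.44) and 0.12 (SD 0.21). The spots of Fos, Fosb, Jun, Junb, Egr1 and Nr4a1, the classical early targets of ERK, were not measured. A second list of 22 other phosphatases and phosphatase regulators had 12 genes found by name and 9 measured, with 15 spots. Of these 15 spots, 3 had an interaction and 2 were called for time, beside the shares of all spots given above. The 2 called were both of Set, an inhibitor of PP2A, and they stood on opposite sides of 0 at 3 h (0.13, SD 0.31, and -0.40, SD 0.56).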

How the data were processed

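RNA of CRH-treated and untreated AtT-20 cells was amplified, aminoallyl-labelled and hybridised by the authors to mouse cDNA arrays of 24192 spots, and the deposited scanner files hold linear intensities per spot and dye, scanned on a ScanArray and quantified in QuantArray by a fixed circle, without background subtraction. The authors also deposited log2 ratios after removal of the dimmest 10% of spots and print-tip loess; this log2 table served as an alternative, with unstated direction and scale found by comparison with the scanner values (r from 0.979 to 0.992 over 11341 shared spots). The 3 h replicate 1 file has 2 further channels of another slide, which were not used.

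From the intensities, log2 ratios of CRH over untreated were computed with print-tip loess (span 0.75), after spots among the dimmest 10% in either dye on any array had been left out, and averaged over 6 arrays. An interaction with dye and then time as 5 levels were tested by linear models at p under 0.01, after the study's methods, with Benjamini-Hochberg adjustment over all spots, and the CRH effect and trend by limma 3.58.1 in R 4.3.3 on the 5 time-point means. P-values over the 30 arrays cover the spread between technical replicate arrays only. The number of arrays limits the precision of the technique only, and the spread between cultures was not measured. Of 435 pairs of arrays 0 were identical. The models were tested on 14375 simulated spots. For the test of time the noise was drawn independently for each array, without any part of file date or extract. Of 100 spots raised by 1 at 1 h this test called 99%, and of 100 raised by 0.5 it called 60%. Of 13775 unchanged spots it called 1%, where it called 8.27% of the real spots without an interaction.

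The members and gene lists were chosen with earlier results of these data known. Named were Dusp1, members past the size rule or a test, up to 12 with the lowest p for time, the spot with the highest and that with the lowest mean of each role group, other spots of these genes, and up to 6 list genes; Dusp14, Mapk3, Dusp3, Dusp6, Ppp1r1c and Ppp3ca lie outside this rule and were added after their values were seen. Genes were matched by the spot names of the files, which differ for some spots from the study's annotation; symbols are those of the files, some now replaced, and 1 gene is not reported here. Alternatives covered background, dim-spot limit, normalization, saturation, replicates, times, file date and the size threshold.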

Additional observations from a re-analysis of the deposited data

Results flagged for a closer look

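Time had p under 0.01 over the 30 arrays in 6 of 95 measured members (6.32%, against 8.27% of all spots), and in 8 of 113 (7.08%, against 7.54%) with the intensity limit on at least 29 arrays. These were, with n = 30 arrays each, Ptp4a2 (p = 3.2e-05), Mapk8ip2 (p = 0.0017), Ptpn11 (p = 0.0017), Ptpre (p = 0.0065) and Ppp2cb (p = 0.0085) among the 6, and Dusp14 (p = 0.00014) and Mapk3 (p = 0.0095) with the looser limit. The p-values cover the spread between technical replicate arrays, and with file date as a block none of the 6 was called. Dusp14 and Mapk3 were not tested with file date as a block. The 1 h arrays have a file date of their own, so that date and time cannot be told apart there.

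In 10 of 205 sets of 6 arrays, 1 array stood far from the other 5, and chance gives about 1 in 20. The largest gap in log2 units was that of Dusp1 at 24 h, where replicate 5 was at -1.75 and the others between -0.41 and 0.37. At 6 h replicate 4 of Map2k4 was at 0.0626, replicate 5 of Mapk6 at -0.287, replicate 6 of the Mapk9 spot with the high mean at -0.0424, and replicate 6 of a Ptpn11 spot at 0.657. For Ppm1a, 3 spots each had such an array, with -0.540 in replicate 6 at 24 h, -0.672 in replicate 3 at 1 h and 0.521 in replicate 2 at 3 h. A Ptp4a2 spot that was not called for time had 0.516 in replicate 4 at 1 h, and the called Ptpre spot had -0.747 in replicate 5 at 12 h.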

How the results depend on the processing

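The counts of members called for a CRH effect or a trend were 0 under all 22 alternatives tried for each. Of 543 recomputed means of named spots 540 moved by less than 1 SD over the arrays; the 3 that moved more were all of Map2k4 at 3 h (0.56 with 1 loess curve per array, 0.54 with block medians, 0.14 without saturated spots). The 6 calls for time became 1 with file date as a block, 3 for 3 h against 6 h only and 3 with spots of one name averaged, and ran from 2 to 7 with each replicate number left out, the lowest without replicate 2. Of the 2 called without replicate 2, 1 was among the 6. With 1 loess curve per array 4 were called, 2 of them among the 6. With block medians 8 were called, 3 of them among the 6. The 12 interactions became 2 without 1 h and ran from 6 to 11 with each replicate left out. The 0 higher members by size became 3 with the 10th percentile subtracted, 2 without the limit on dim spots, 2 with the limit on at least 29 arrays (both Dusp14), 1 with block medians (Ppm1b), 4 with a size of 0.4, and 0 to 1 with a replicate left out; the 0 lower became 1 with a size of 0.4. Counts in this section are given without the share of all spots, so they are no result about the members as a set. The averaging and the looser limit were chosen after seeing the data, and without the limit intensities under 1 were set to 1. Of the calls for time, Ptp4a2 was kept in 22 of 26 settings, Ptpn11 in 18 of 25, Mapk8ip2 in 17 of 25, Ptpre in 13 of 26 and Ppp2cb in 11 of 26.

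Same-numbered arrays of different times did not deviate together from the other arrays of their time and dye orientation (60 pairs, r from -0.025 to 0.052). These are deviations between technical replicate arrays, so they cannot show whether extracts of the same number belong together. With the number as a replicate block 5 members were called for time. The size rule cannot show changes under 1.5-fold. The test of time is limited by the lack of a measured spread between cultures and by file dates that mostly follow the time points.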
